A study of Rattus norvegicus with 6 samples.

Results

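The genes described here are named as proteins of the mitochondrial ribosome, and 74 of the 22093 genes measured carry such a name. They were taken as genes whose symbol is Mrpl or Mrps followed by a number, with an optional final letter. Mrpl is named for the large subunit and Mrps for the small one. The rule gave 45 Mrpl and 29 Mrps genes. Of these, Mrps30 and Mrps18a lie in the large subunit despite their names, and Mrps36 and Mrps21l were placed in neither subunit. The tissue was the Achilles tendon of the left hindlimb, freed of skin, from rats aged 6 to 8 weeks (P 6-8w, 3 arrays) and from neonatal rats aged 1 day (P 1d, 3 arrays), with 1 rat per array. Both groups were untreated male Sprague Dawley rats. RNA was read on Affymetrix arrays made for the rat transcriptome, where a set of short probes for each transcript lights up in proportion to its abundance. All values are log2 signals, so a difference of 1 is a 2-fold change, and every difference is P 6-8w minus P 1d. Signals of different genes come from different probes and are not compared as amounts. The comparison asks how the 2 stages of tendon maturation differ in the transcripts of this ribosome.

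Mitochondria keep a small genome that encodes core subunits of the respiratory chain and of ATP synthase, and a ribosome of their own translates these transcripts inside the organelle. The RNA of that ribosome comes from the mitochondrial genome, while its proteins are encoded in the nucleus, made in the cytosol and imported. Some of these proteins have a counterpart in the bacterial ribosome and others are found only in mitochondria. The proteins built from mitochondrial transcripts serve oxidative phosphorylation, which is used heavily in skeletal muscle, the tissue joined to the tendon.

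The arrays differed between the ages beyond these genes. Taken over every row of the array, the median signal was 4.43, 4.54 and 4.44 at P 6-8w, against 3.98, 3.93 and 3.97 at P 1d. Fewer genes were bright at P 6-8w, with 1607, 968 and 1284 genes at or above 8, against 2783, 2873 and 2864 at P 1d. The tendon transcription factors Scx and Mkx were dim on every array, at 4.44 to 4.52 and 4.75 to 5.08 at P 6-8w, against 4.52 to 4.55 and 4.72 to 4.98 at P 1d. Of 10 tendon markers none passed the test (log2 sums of 21.00 to 21.15 at P 6-8w, against 20.93 to 21.18 at P 1d). Among them Col1a1 and Col1a2 read the highest value of each array (19.56 to 19.59 at P 6-8w, against 19.74 to 19.79 at P 1d). They weigh heavily in the sum, which therefore says little of the other tendon markers. The median over the 10 markers was 14.38, 10.68 and 13.225 at P 6-8w, against 14.205, 13.75 and 13.425 at P 1d. The tendon membrane protein Tnmd read 13.47, 9.36 and 12.37 at P 6-8w, against 14.91, 14.38 and 13.44 at P 1d. Of 14 skeletal muscle markers 8 fell and 2 rose, and the log2 of their summed signal ran over 17.91 to 19.92 at P 6-8w, against 21.12 to 21.27 at P 1d. The 2 that rose were the myosin heavy chains Myh4 (8.31) and Myh1 (3.95), while the myosin heavy chains Myh3 (-10.55) and Myh8 (-8.94) fell the most. Acta1 read the highest value of each P 1d array (19.74 to 19.79), and Myh3 read 19.29 to 19.42 there. Both weigh heavily in the P 1d sum, which is therefore not a measure of the amount of muscle. P 6-8w replicate 2 was the lowest in both marker lists' medians and had the fewest bright genes. Of 8 epidermal markers none passed, but their log2 sum was 7.56 to 7.86 at P 6-8w, against 18.10, 7.21 and 19.32 on P 1d replicates 1, 2 and 3. Of 6 adipocyte markers 4 rose (log2 sums of 11.40 to 13.42 at P 6-8w, against 10.17 to 11.27 at P 1d), and of 7 macrophage markers 3 fell (8.80 to 9.19 at P 6-8w, against 9.18 to 10.81 at P 1d). Of 6 endothelial markers 2 fell and 1 rose, and of 5 blood and 4 Schwann cell markers none passed. The part of these cell types in the results below was not tested, and in whole tissue fewer cells of a type and less RNA per cell cannot be told apart.

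The transcripts of 18 of the 74 mitochondrial ribosomal proteins fell at P 6-8w and none rose as deposited, while with arrays centred on 11 reference genes or on the bright genes more members were called higher than lower. A call is an adjusted p under 0.05 with a fold over 2. Such a call favours groups that stand apart, so a lack of overlap in a called member adds little. The called share was 24.3% of the members, beside 16.8% of all genes called lower and 2.46% called higher. With the arrays centred on the median of all named genes, 20 members were lower (27.0%, beside 19.3% of all genes) and 0 higher (beside 1.55%). With quantile normalization 2 members were lower (2.7%, beside 4.48%) and 0 higher (beside 4.05%), so the lower share was below that of all genes. With the reference genes 3 were lower (4.05%, beside 5.96%) and 7 higher (9.46%, beside 54.9%). With the bright genes 1 was lower (1.35%, beside 2.68%) and 51 higher (68.9%, beside 78.2%). Under these 2 scalings most genes were called higher, and the share was smaller among the members. Of the 11 reference genes 5 were themselves called lower as deposited. The median difference of the members was -0.50, against 0.04 for all genes, and the members ran from -3.36 to 0.10. The difference was negative in 68 members, positive in 5 and 0 in 1. At an adjusted p under 0.05 and any fold 44 members (59.5%) were lower and 0 higher, beside 30.6% of all genes lower and 23.7% higher. In 52 members (70.3%) every P 6-8w array lay below every P 1d array, as it did in 34.1% of all genes. In 0 members did every P 6-8w array lie above, where 34.8% of all genes had that order. At an unadjusted p under 0.05 limma had 0 members higher, and limma-trend called 18 lower and 0 higher.

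**Figure D1:**
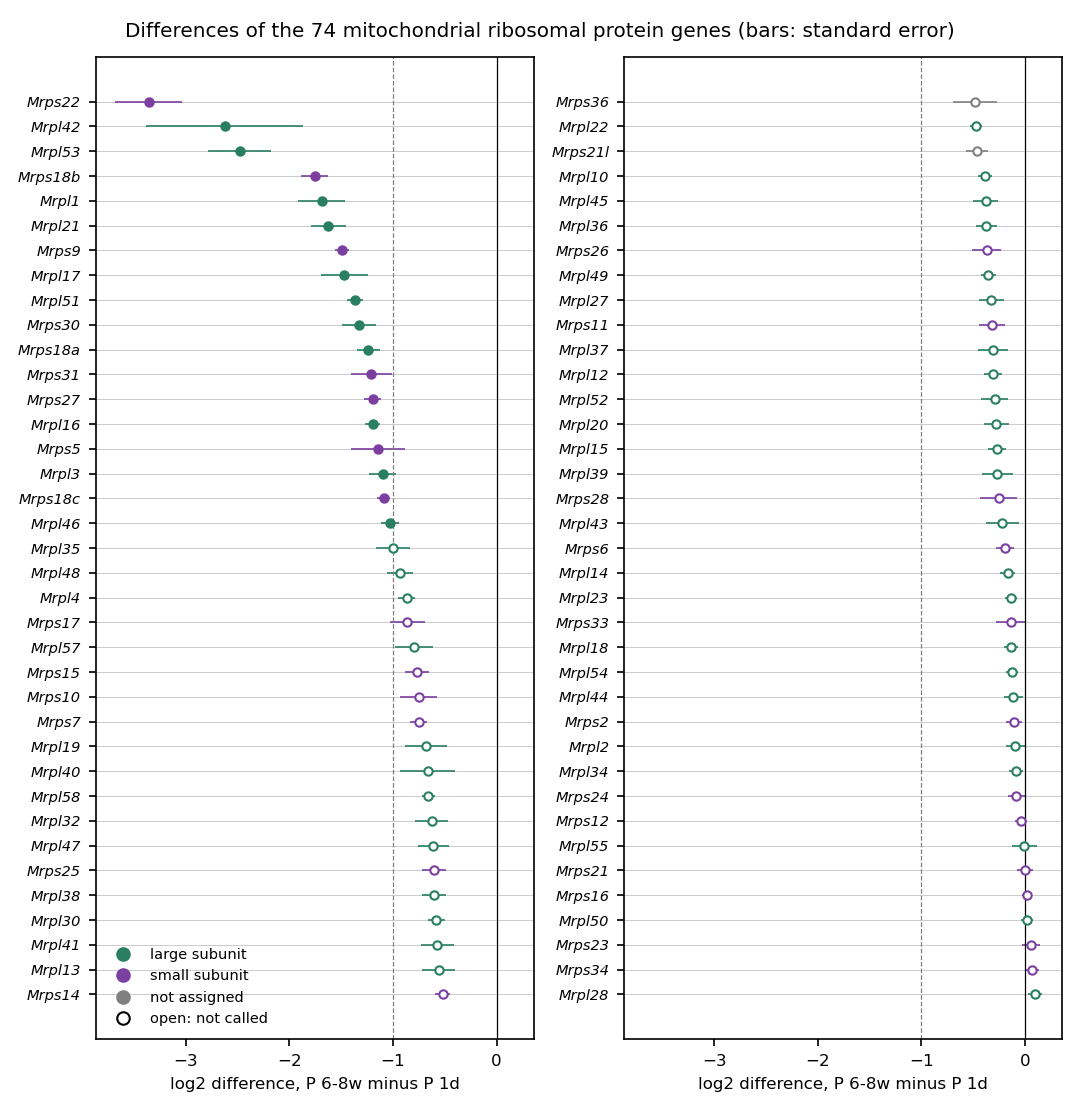
Difference in log2 signal (P 6-8w minus P 1d) of each of the 74 mitochondrial ribosomal protein genes, with the standard error of the fit as bars. Filled points passed the test, colours give the subunit and the dashed line marks -1; 18 members lie beyond it and pass, from -3.36 for Mrps22 to -1.03 for Mrpl46.

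Promoter windows of 300 bases, reaching from 250 before to 50 after a gene's start, were found in the RefSeq table (build GRCr8) for 59 of the 74 members, in 61 windows. They were searched on both strands for the letters of 3 factors known to act at nuclear genes for mitochondrial proteins, namely the ETS protein GABPA (CCGGAAG, or CTTCCGG on the other strand), NRF1 (GCATGCGC or GCGCATGC) and YY1 (AAGATGGC or GCCATCTT). The ETS letters stood in 20 of 61 member windows (32.8%), against 8.75% of all 33469 windows. The YY1 letters stood in 15 (24.6%), against 3.17%, and the NRF1 letters in 5 (8.2%), against 2.47%. Other motifs were nearer to the share of all windows. The E-box CACGTG was in 9.84% of member windows and 6.42% of all windows, the CREB letters TGACGTCA in 1.64% and 1.83%, and the TATA letters TATAAA (or TTTATA) in 13.1% and 14.2%. Among the 15 windows of called members 7 held the ETS letters, 6 the YY1 letters and 2 the NRF1 letters. Among the 46 windows of the other members it was 13, 9 and 3. The TATA letters were also more frequent in windows of called members, with 4 of 15 (26.7%), against 4 of 46 (8.7%). For ETS these shares were 46.7% and 28.3%, and for YY1 40.0% and 19.6%. Called and other members were not tested against each other, and no link of any motif to the fall is read from these shares. A match is a run of letters and not a shown binding site. The windows below belong to 3 of the 4 members with the largest differences, to Mrpl46, which shares its window with a neighbour, and to Mrpl28, which had the most positive difference and holds no match. These windows do not stand for the whole set. The called members Mrpl1, Mrps9, Mrpl51 and Mrps5 hold no match either. Of members not called, Mrpl50 (0.02) holds the YY1 letters and Mrpl32 (-0.63) the NRF1 and YY1 letters. The windows are written in the gene's own direction, with the ETS, NRF1 and YY1 letters in capitals. Mrpl42 lies at chr7:32028473-32028772 (minus strand), Mrpl53 at chr4:117172793-117173092 (plus), Mrps18b at chr20:2842756-2843055 (plus), Mrpl46 at chr1:142116981-142117280 (minus) and Mrpl28 at chr10:15652929-15653228 (plus). In Mrps18b the NRF1 letters are read on both strands and the matches overlap in 1 run of capitals.
Mrpl42: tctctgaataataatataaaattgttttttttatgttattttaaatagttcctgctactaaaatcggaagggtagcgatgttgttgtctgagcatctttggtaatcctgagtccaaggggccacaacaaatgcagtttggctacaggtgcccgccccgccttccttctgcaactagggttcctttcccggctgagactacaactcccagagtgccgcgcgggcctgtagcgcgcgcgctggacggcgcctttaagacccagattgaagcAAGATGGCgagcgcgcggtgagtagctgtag
Mrpl53: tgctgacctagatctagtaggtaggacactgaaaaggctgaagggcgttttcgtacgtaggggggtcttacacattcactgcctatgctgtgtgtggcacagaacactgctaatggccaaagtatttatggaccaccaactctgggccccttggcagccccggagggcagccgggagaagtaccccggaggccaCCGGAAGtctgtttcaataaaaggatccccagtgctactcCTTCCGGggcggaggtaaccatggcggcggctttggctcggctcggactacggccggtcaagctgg
Mrps18b: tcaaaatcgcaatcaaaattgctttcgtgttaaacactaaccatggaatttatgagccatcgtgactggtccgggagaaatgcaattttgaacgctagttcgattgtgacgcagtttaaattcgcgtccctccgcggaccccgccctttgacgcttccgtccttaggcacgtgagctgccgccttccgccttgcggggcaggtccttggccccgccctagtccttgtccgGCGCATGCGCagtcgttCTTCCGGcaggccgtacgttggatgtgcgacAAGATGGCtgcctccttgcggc
Mrpl46: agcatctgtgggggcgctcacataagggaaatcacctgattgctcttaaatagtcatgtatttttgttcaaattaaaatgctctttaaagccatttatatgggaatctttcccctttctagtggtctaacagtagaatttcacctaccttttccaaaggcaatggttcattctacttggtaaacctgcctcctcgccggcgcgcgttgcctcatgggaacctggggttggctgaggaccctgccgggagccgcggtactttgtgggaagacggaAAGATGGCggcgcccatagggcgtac
Mrpl28: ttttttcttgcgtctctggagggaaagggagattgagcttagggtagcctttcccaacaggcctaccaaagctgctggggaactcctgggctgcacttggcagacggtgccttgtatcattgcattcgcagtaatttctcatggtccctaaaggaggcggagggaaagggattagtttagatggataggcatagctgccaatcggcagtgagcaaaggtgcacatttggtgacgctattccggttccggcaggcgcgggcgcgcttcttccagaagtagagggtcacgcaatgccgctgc

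The largest difference was that of Mrps22, a small subunit protein with no bacterial counterpart whose human gene is mutated in some inherited mitochondrial diseases. It read 6.06, 4.80 and 5.29 on the P 6-8w arrays, against 8.62, 8.76 and 8.84 on the P 1d arrays. All P 6-8w arrays lay far below the P 1d arrays, a 10.2-fold lower signal (difference -3.36, SE 0.32, adjusted p = 0.00105). Mrps22 was also the only member called lower under all 5 scalings, and its difference was -1.57 with arrays centred on the bright genes. Mrps18b and Mrps31 are 2 further small subunit proteins particular to mitochondria. Mrps18b, whose promoter window above holds all 3 kinds of letters, read 5.72, 5.77 and 5.73 at P 6-8w, against 7.36, 7.36 and 7.77 at P 1d. The P 6-8w arrays were nearly alike and all lower (-1.76, SE 0.13, adjusted p = 0.000483). Mrps31 read 5.71, 5.71 and 5.08 at P 6-8w, against 6.8, 6.55 and 6.78 at P 1d (-1.21, adjusted p = 0.00538). Its groups did not overlap, though without P 6-8w replicate 3 the difference was -1 and the call was lost.

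Of the small subunit proteins with a bacterial counterpart, Mrps9, Mrps5 and Mrps18c fell. Mrps9 read 6.48, 6.64 and 6.49 at P 6-8w, against 8.02, 8.02 and 8.04 at P 1d (-1.49, SE 0.07, adjusted p = 0.000155). The gap was many times the spread within either age. Mrps5, which helps form the entry of the mRNA channel, read 6.98, 6.29 and 7.30 at P 6-8w, against 8.00 on each P 1d array (-1.14, adjusted p = 0.0152). The groups stood apart but the P 6-8w arrays spread over a wide range. The call of Mrps5 was lost without any 1 of the P 1d arrays (adjusted p 0.0519 to 0.0530) and without P 6-8w replicate 2 (-0.86). Mrps27, a small subunit protein of the pentatricopeptide repeat type, read 5.64, 5.49 and 5.39 at P 6-8w, against 6.70, 6.69 and 6.72 at P 1d (-1.20, adjusted p = 0.000381), again without overlap.

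Mrps18a, Mrps18b and Mrps18c are 3 relatives of the bacterial protein S18, and all fell as deposited. Mrps18c takes the place of S18 in the small subunit. Mrps18b in the small subunit and Mrps18a in the large one fill places with no bacterial counterpart and are counted here as particular to mitochondria. Mrps18a read 6.00, 6.23 and 5.97 at P 6-8w, against 7.15, 7.45 and 7.31 at P 1d (-1.24, adjusted p = 0.000885). Mrps18c read 6.16, 6.11 and 6.24 at P 6-8w, against 7.22, 7.28 and 7.28 at P 1d (-1.09, adjusted p = 0.000236). In all 3 paralogs every P 6-8w array was below every P 1d array. All 3 were below -1 with the deposited values, while with arrays centred on the bright genes their differences were 0.033 for Mrps18b, 0.55 for Mrps18a and 0.70 for Mrps18c.

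**Figure D2:**
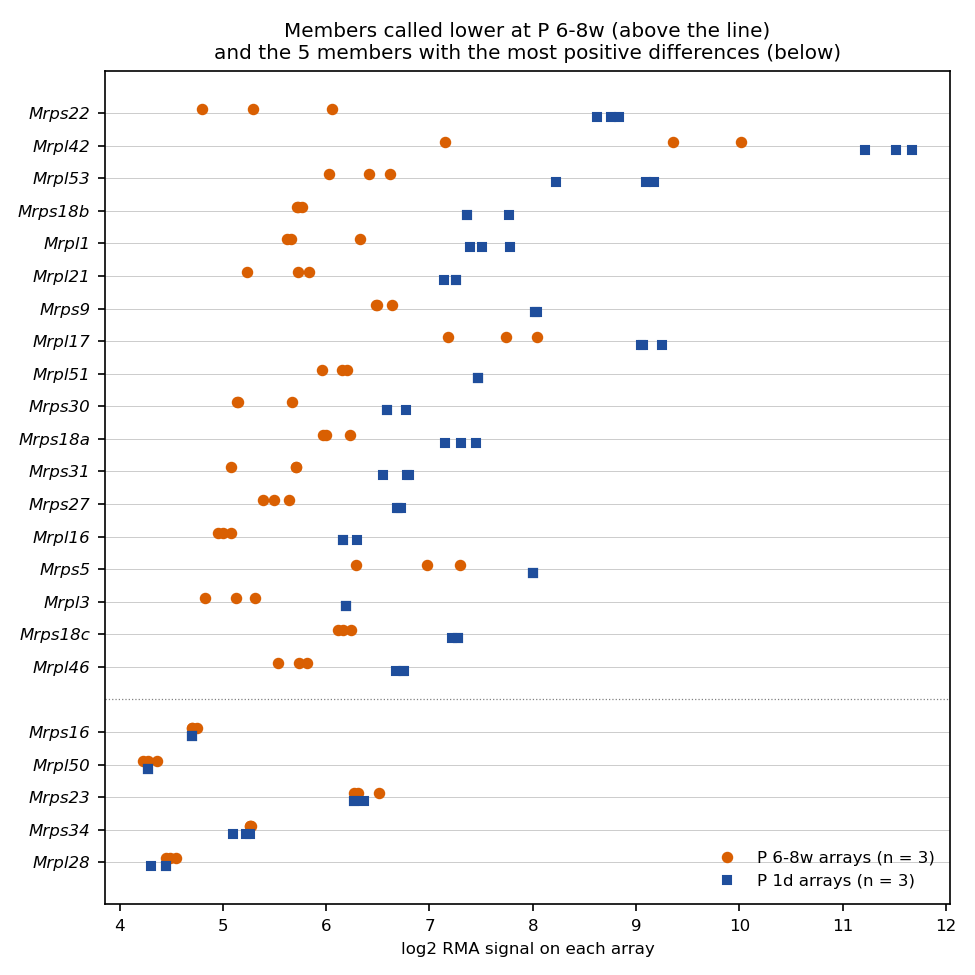
Log2 signal of the 18 called members (above the dotted line) and of the 5 members with the most positive differences (below it) on each array, with P 6-8w as orange circles and P 1d as blue squares. All 18 called members show the P 6-8w circles left of the P 1d squares, which the limits of a call favour. The circles of Mrpl42 are the most spread, from 7.15 to 10.02.

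In the large subunit the largest differences were those of Mrpl42 and Mrpl53, both without a bacterial counterpart. Mrpl42 was the brightest member and read 9.36, 7.15 and 10.02 at P 6-8w, against 11.22, 11.52 and 11.67 at P 1d. All P 6-8w arrays were lower, but their span, from 7.15 to 10.02, was wider than the difference itself (-2.63, SE 0.75, adjusted p = 0.0317). Without P 6-8w replicate 2, its lowest array, the difference was -1.78 (adjusted p = 0.00804), and the call was lost without P 6-8w replicate 1 (adjusted p = 0.0583) or without any 1 of the P 1d arrays (0.0773 to 0.0936). Mrpl53, with 2 ETS matches in its window above, read 6.41, 6.03 and 6.62 at P 6-8w, against 8.23, 9.10 and 9.17 at P 1d. Its signal was 5.58-fold lower (-2.48, SE 0.30, adjusted p = 0.00212), and it stayed lower and called with quantile normalization (-1.23) and with the reference genes (-1.46).

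Mrpl51, Mrps30 and Mrpl46 are further large subunit proteins particular to mitochondria, Mrps30 despite its name. Mrpl51 read 6.20, 6.15 and 5.96 at P 6-8w, against 7.47 on each P 1d array (-1.37, adjusted p = 0.000268). Mrps30 read 5.67, 5.14 and 5.15 at P 6-8w, against 6.59, 6.77 and 6.59 at P 1d (-1.33, adjusted p = 0.00225). In both the groups were well apart. Mrpl46 read 5.53, 5.74 and 5.81 at P 6-8w, against 6.68, 6.75 and 6.74 at P 1d (-1.03, adjusted p = 0.00074). It lay just past the limit, and without P 6-8w replicate 1 it was -0.95 and not called.

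Large subunit proteins with a bacterial counterpart that fell were Mrpl1, Mrpl3, Mrpl16, Mrpl17 and Mrpl21. Mrpl1, which lies at the stalk where spent tRNA leaves, read 5.62, 6.33 and 5.66 at P 6-8w, against 7.39, 7.51 and 7.78 at P 1d (-1.69, adjusted p = 0.00282). A second row for Mrpl1 read 6.20, 6.07 and 6.01 at P 6-8w, against 6.74, 6.74 and 7.01 at P 1d, with a smaller difference of -0.74. Both rows had the same direction, and the brighter one is not placed on a chromosome in the array annotation. Mrpl17, at the edge of the exit tunnel, read 8.04, 7.74 and 7.18 at P 6-8w, against 9.05, 9.07 and 9.25 at P 1d (-1.47, adjusted p = 0.00452). Mrpl21 read 5.73, 5.23 and 5.83 at P 6-8w, against 7.14, 7.26 and 7.26 at P 1d (-1.62, adjusted p = 0.00135). Neither gene had an overlap between the ages. Mrpl16 and Mrpl3 lie near the centre where peptide bonds form. Mrpl16 read 4.95, 5.0 and 5.08 at P 6-8w, against 6.16, 6.16 and 6.30 at P 1d (-1.20, adjusted p = 0.000281). Mrpl3 read 4.83, 5.31 and 5.13 at P 6-8w, against 6.19 on each P 1d array (-1.10, adjusted p = 0.00188), and it was -0.97 and not called without P 6-8w replicate 1.

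By subunit, 11 of 47 large subunit members fell (23.4%, median -0.56) and 7 of 25 small subunit members (28.0%, median -0.52), beside 16.8% of all genes. By origin, 10 of 30 members that fill places found only in mitochondria fell (33.3%, median -0.60) and 8 of 42 with a bacterial counterpart (19.0%, median -0.43). These shares were not tested against each other. The mitochondria-only members were also brighter, with a median mean signal of 5.92, against 5.33. Mrps36 and Mrps21l were placed in neither group. RefSeq now names Mrps36 as Kgd4, a component of the 2-oxoglutarate dehydrogenase complex, and its array row lies on another chromosome than the RefSeq gene. It read 6.45, 6.21 and 6.38 at P 6-8w, against 6.49, 6.73 and 7.27 at P 1d and did not pass (-0.48, adjusted p = 0.103). Mrps21l is named for its likeness to Mrps21, and whether the probes separate this pair was not tested. Mrps21l was -0.46 (adjusted p = 0.0165), while Mrps21 read 5.23, 5.07 and 5.23 at P 6-8w, against 5.07, 5.23 and 5.23 at P 1d, a difference of 0.

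Of the 56 members that were not called, 26 had an adjusted p under 0.05 and a difference of -1 to -0.27, all without overlap between the ages. A low p favours groups that stand apart, so the lack of overlap adds little here, and its share among all such genes was not counted. Mrpl35 read 6.54, 7.01 and 7.02 at P 6-8w, against 7.69, 7.94 and 7.94 at P 1d. Its difference was exactly the limit of -1 (adjusted p = 0.00503), and it was called with arrays centred on the median of all genes or without P 1d replicate 1 (-1.08), P 6-8w replicate 2 (-1.08) or P 6-8w replicate 3 (-1.08). Mrpl48 read 5.23, 4.91 and 5.30 at P 6-8w, against 5.96, 6.20 and 6.08 at P 1d (-0.93, adjusted p = 0.00304), and it was -1.01 and called without P 6-8w replicate 3. Next came Mrpl4 at -0.87 and Mrps17 at -0.86. Mrpl58, a peptidyl-tRNA hydrolase that became part of the ribosome, was -0.66 (adjusted p = 0.00101). The stalk proteins Mrpl10 and Mrpl12, which recruit translation factors, were -0.39 and -0.31. Among the brighter members Mrpl32 read 7.07, 7.60 and 7.09 at P 6-8w, against 7.84, 7.97 and 7.83 at P 1d (-0.63, adjusted p = 0.0222).

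At the p limit itself, Mrpl45, which tethers the ribosome to the inner membrane, read 6.02, 6.46 and 6.24 at P 6-8w, against 6.58, 6.58 and 6.70 at P 1d (-0.38, adjusted p = 0.0464). Mrpl15 read 5.13, 5.14 and 5.14 at P 6-8w, against 5.29, 5.36 and 5.58 at P 1d (-0.27, adjusted p = 0.0459). Both were just inside. Just outside were Mrpl27 with 5.74, 5.75 and 6.13 at P 6-8w, against 6.20 on each P 1d array (-0.33, adjusted p = 0.0653), and Mrps26 with 5.44, 5.92 and 5.83 at P 6-8w, against 6.13, 6.13 and 6.04 at P 1d (-0.37, adjusted p = 0.0676). Mrpl36, which has 2 rows, read 4.23, 4.06 and 3.99 at P 6-8w, against 4.39, 4.39 and 4.62 at P 1d (-0.37, adjusted p = 0.0266), and its dimmer row was -0.26. All of these genes were lower on average by less than the fold limit.

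The 30 members with an adjusted p of 0.05 or more ran from -0.66 for Mrpl40 to 0.10 for Mrpl28 (median -0.14). In 8 of them (26.7%) every P 6-8w array was below every P 1d array. A high p favours groups that overlap, and the share among all genes with such a p was not counted. Mrpl28 had the most positive difference, with 4.45, 4.49 and 4.55 at P 6-8w, against 4.45, 4.30 and 4.45 at P 1d (0.10, adjusted p = 0.263). Mrps34 read 5.26, 5.26 and 5.27 at P 6-8w, against 5.22, 5.10 and 5.26 at P 1d (0.07). Mrps23 read 6.27, 6.31 and 6.51 at P 6-8w, against 6.37, 6.27 and 6.27 at P 1d (0.06). These groups overlapped or touched. Mrps16 and Mrpl50 were both at 0.02, with 4.70 to 4.75 and 4.23 to 4.36 at P 6-8w, against 4.70 and 4.27 on each P 1d array. With arrays centred on the median of all genes these 5 differences were all below 0, at -0.11 to -0.03, and with the reference genes all 5 were called higher. The dimmest member was Mrps12, a protein of the decoding centre, at 3.82 to 3.88 at P 6-8w, against 3.85 to 3.96 at P 1d.

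Differences are given next by range of mean signal over the 6 arrays, as a description. That mean holds both ages, so the range of a gene depends in part on its difference. Mrpl17, for example, averaged 7.65 at P 6-8w and 9.12 at P 1d and falls in the highest range. Of 15 members with a mean under 5, 0 were called and their median difference was -0.09, against 0.22% called lower and a median of 0.30 for all genes in that range. Between 5 and 6, 3 of 34 members fell (median -0.54), against 9.73% of genes (median -0.34). Between 6 and 7 it was 9 of 17 members (median -1.03), against 39% of genes (median -0.84). Between 7 and 8 it was 4 of 6 (median -1.32), against 61.6% (median -1.25), and at 8 or above 2 of 2 (median -2.05), against 72.5% (median -1.83). Among genes with a mean of at least 5, 38.5% were called lower in a fit of those genes alone, while 18 of 59 members were (30.5%). In that fit the members' median was -0.63, against -0.76 for all such genes. Members that were dim at P 6-8w could pass this filter through P 1d alone, as Mrps17 did with means of 4.79 at P 6-8w and 5.65 at P 1d, so nothing is read from these shares. Within each of the 5 ranges the members' median was below that of all genes, though the highest range holds 2 members. The same limit holds for these medians, and nothing is read from them.

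**Figure D3:**
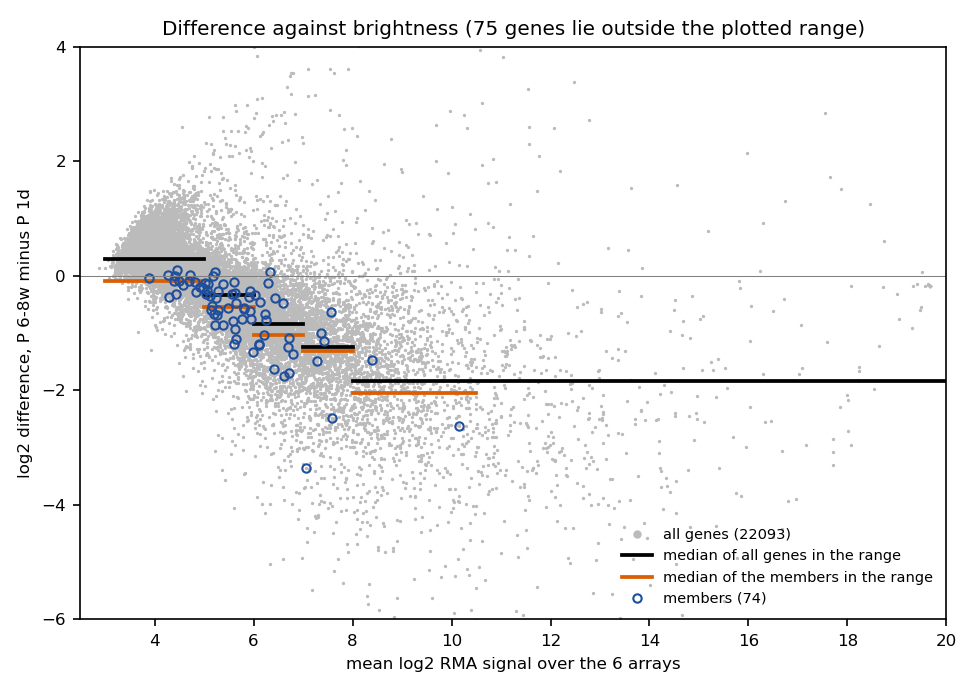
Difference in log2 signal (P 6-8w minus P 1d) against the mean log2 signal over the 6 arrays, with all genes in grey, the mitochondrial ribosomal protein genes marked, and medians per brightness range in black (all genes) and orange (members). Both medians go down with brightness, to -2.05 for members and -1.83 for all genes at 8 or above, and 75 genes lie outside the plotted range.

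The scaling of the arrays moved the whole family. With arrays centred on the median of all named genes the members' median was -0.63 and that of all genes -0.08. With quantile normalization it was -0.22 for members and 0.00 for all genes, and the 2 members called lower were Mrps22 and Mrpl53. Centred on 11 widely expressed reference genes, such as Actb and Tbp, the members' median was 0.52 and that of all genes 1.06. Of these 11 reference genes 5 were themselves called lower as deposited and 0 higher (median -0.88), with Ppia at -2.87 and Hprt1 at -2.03. They are therefore not a set that stayed level between the ages on the deposited scale. The 3 members still lower were Mrps22, Mrpl42 and Mrpl53, and Mrpl28, Mrpl50, Mrpl55, Mrps16, Mrps21, Mrps23 and Mrps34 were higher. Centred on genes with a mean of at least 8, the medians were 1.29 for members and 1.83 for all genes. Centring moves every gene on an array alike, so the members' median minus that of all genes, -0.545, is the same under each centring by construction. Under quantile normalization it was -0.22, and in the fit without genes under a mean of 5 it was 0.13. These arrays hold no measure of total RNA per tendon, so which centring is closest to the amount of transcript was not tested.

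**Figure D4:**
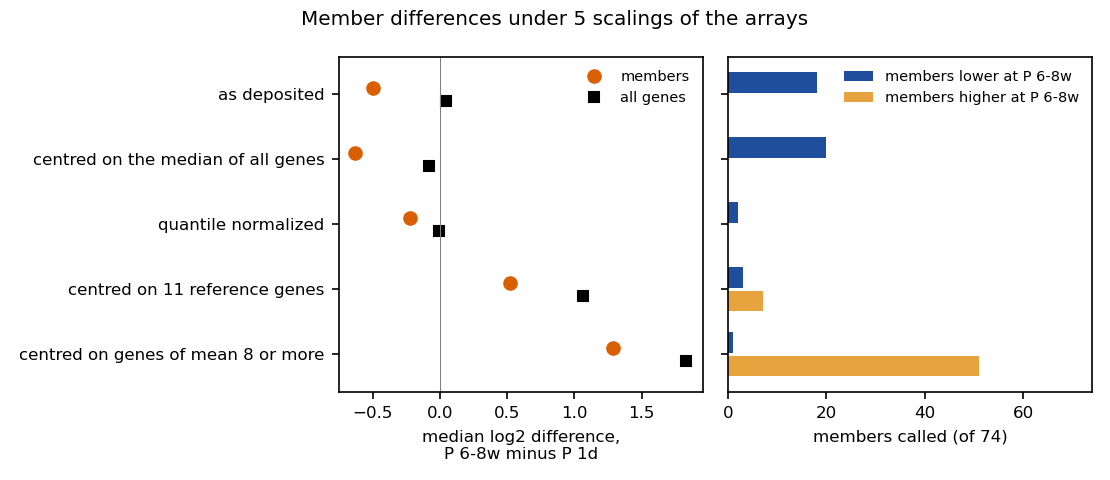
Median difference (P 6-8w minus P 1d, log2) of the members and of all genes, and the number of members called lower and higher, under 5 scalings of the arrays. The 3 centrings shift members and all genes by the same amount, and the members' calls go from 18 lower and 0 higher as deposited to 1 lower and 51 higher with arrays centred on the bright genes.

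Replicates of the 2 ages differed in their spread. The SD was larger at P 6-8w in 60 of 74 members and in 79.1% of all genes, with a median SD of the members of 0.15 at P 6-8w and 0.07 at P 1d. No member had the same value on all 3 P 6-8w arrays, while 17 had on all 3 P 1d arrays, among them the called members Mrpl51, Mrps5 and Mrpl3. Of all genes 1.71% had it at P 6-8w and 16.6% at P 1d. With P 1d replicate 2, the array with low epidermal markers, as the only P 1d array, 7 members were called lower (9.46%, beside 4.94% of all genes) and 0 higher (beside 0.303%), all 7 among the 18, and the members' median was -0.52. These 7 were Mrpl16, Mrpl51, Mrpl53, Mrps9, Mrps18a, Mrps18b and Mrps18c. The median over members was 5.31, 5.28 and 5.28 on the P 6-8w arrays, against 5.86, 5.95 and 5.97 on the P 1d arrays.

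Mrpl46 and Mrps11 start close together on opposite strands of chromosome 1, and their promoter windows share 267 bases. The YY1 match of Mrpl46 lies in the stretch that the Mrps11 window (chr1:142117014-142117313, plus strand) does not hold. Mrps11 read 5.24, 5.34 and 5.63 at P 6-8w, against 5.83, 5.59 and 5.75 at P 1d (-0.32, adjusted p = 0.0795), so its ages were close, while Mrpl46 was called. Within each array Mrpl46 minus Mrps11 was 0.29, 0.40 and 0.18 at P 6-8w, against 0.85, 1.16 and 0.99 at P 1d. The groups did not overlap, with a mean of 0.29 ± 0.11 at P 6-8w and 1.00 ± 0.16 at P 1d (SD, n = 3 each), and the difference of -0.71 does not move with the centring of the arrays. The exact two-sided permutation test gave p = 0.1, the smallest that 3 against 3 arrays allow. The pair was found by its coordinates and not by its values.

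Other genes that serve mitochondrial translation were read from 7 lists beside the members. As deposited, the median of each list was below 0, as it was centred on the median of all named genes and with quantile normalization (-0.35 to -0.086), but the medians were 0.20 to 0.67 with arrays centred on the reference genes and 0.965 to 1.44 with arrays centred on the bright genes. The calls that follow are those of the deposited scale, beside 16.8% of all genes called lower. Of 6 measured genes listed as ribosomal proteins under other names 2 fell (33.3%) and 0 rose (median -0.53). The list holds Lactb (-0.77, not called), whose place in the ribosome is not established. Ptcd3, a pentatricopeptide repeat protein of the small subunit, read 6.99, 6.25 and 6.94 at P 6-8w, against 8.28, 8.36 and 8.47 at P 1d (-1.64, adjusted p = 0.00265). Aurkaip1 of the small subunit was -1.05 (adjusted p = 0.00252). The small subunit GTP-binding protein Dap3 read 4.95, 4.89 and 4.88 at P 6-8w, against 5.16, 5.21 and 5.21 at P 1d, and was not called (-0.29). Of 16 translation factors and helpers 5 fell (31.2%) and 0 rose (median -0.79). Oxa1l, which inserts new proteins into the inner membrane at the ribosome, read 6.72, 6.25 and 6.38 at P 6-8w, against 9.51, 10.09 and 9.78 at P 1d (-3.34, adjusted p = 0.000273). Lrpprc, which stabilises mitochondrial mRNA, read 6.95, 6.33 and 6.99 at P 6-8w, against 9.17, 9.33 and 9.33 at P 1d (-2.52, adjusted p = 0.000574). Neither gene had any overlap between the ages. The elongation factors Gfm1 and Guf1 were -1.71 and -1.30.

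Of 26 genes for assembly of the ribosome 4 fell and 0 rose (median -0.35), and the called share of 15.4% was below the 16.8% of all genes. C1qbp, a matrix protein needed for mitochondrial translation, read 7.23, 7.41 and 7.77 at P 6-8w, against 10.05, 10.37 and 10.87 at P 1d (-2.96, adjusted p = 0.000722), with a wide gap between the ages. Mterf3 was -1.66, the ribosome binding factor Rbfa -1.25 and the rRNA methyltransferase Tfb1m -1.09. Of 21 tRNA synthetases 3 fell and 0 rose (median -0.35), and this share of 14.3% was also below that of all genes. These were Kars1 (-2.31) and Gars1 (-1.96), which also serve the cytosol, and Iars2 (-1.66), which is mitochondrial. Of 20 genes for the expression of mitochondrial DNA 7 fell and 0 rose (median -0.68). Tefm, the mitochondrial transcription elongation factor, was -1.99, and Supv3l1, Hsd17b10 and Tfam were -1.47, -1.33 and -1.25. The mitochondrial RNA polymerase Polrmt was at 4.31 on all 6 arrays, below the median of all genes on each. Of all genes 6.07% had 1 value on at least 4 of 6 arrays, so a steady level of Polrmt is not read from this.

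Among 16 regulators of mitochondrial biogenesis 7 fell (43.8%) and 0 rose (median -0.82). Gabpa, the ETS protein whose letters were searched in the promoters, read 6.36, 5.89 and 6.33 at P 6-8w, against 8.23 on each P 1d array (-2.04, adjusted p = 0.00042). Nrf1 read 5.73, 5.41 and 5.62 at P 6-8w, against 6.58, 6.52 and 6.60 at P 1d, which was just short of the fold limit (-0.98, adjusted p = 0.0011). Yy1 read 5.79, 5.95 and 6.29 at P 6-8w, against 6.03, 6.29 and 6.29 at P 1d, and its groups touched (-0.19, adjusted p = 0.314). The kinase subunit Prkaa2 was -2.51, the deacetylase Sirt1 -1.89 and the coactivator Ppargc1a -1.52. Of 27 genes for protein import and folding in mitochondria 12 fell (44.4%) and 0 rose (median -0.78). The largest falls were those of the chaperones Hspe1 (-2.92), Hspa9 (-2.72) and Hspd1 (-2.28) and the import receptor Tomm70 (-2.18).

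**Figure D5:**
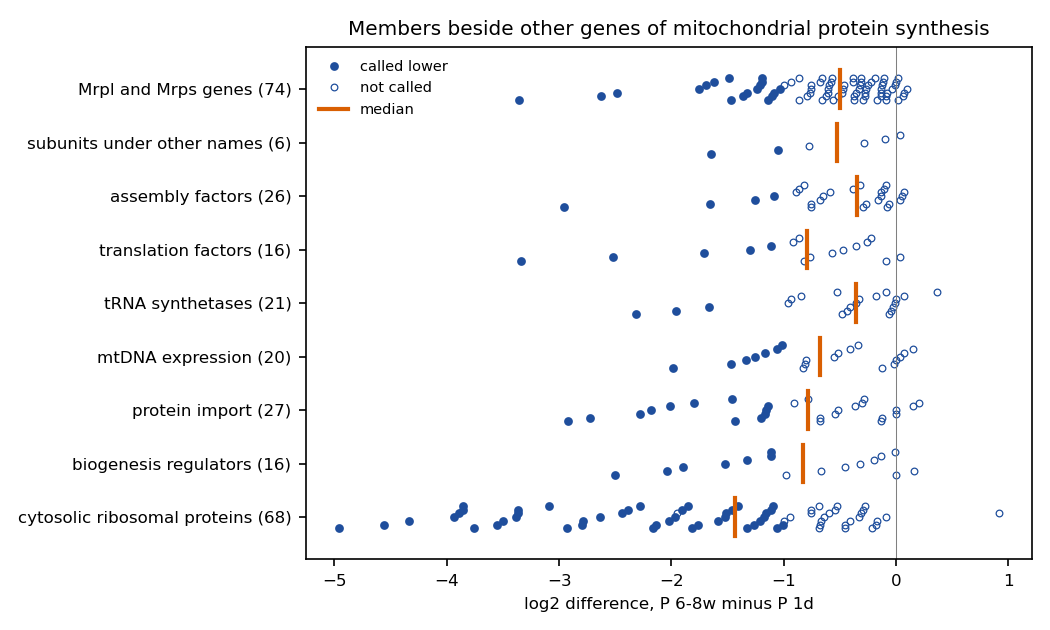
Differences in log2 signal (P 6-8w minus P 1d) of the mitochondrial ribosomal protein genes and of the genes in each related list, with called genes filled and the list's median in orange. The medians run from -0.35 for assembly and tRNA synthetases to -1.43 for the cytosolic ribosomal proteins, and no gene of these lists was called higher on the deposited scale.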

How the data were processed

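Total RNA of 6 tendons, 1 rat each, was hybridised to Affymetrix Rat Transcriptome Arrays. The authors summarised probes with RMA at default settings with global scaling and deposited log2 signals. Both deposited tables carry these log2 values, equal in 413052 of 413052 cells. The genome build of the array rows: not given in the sources used here. No detection calls were used, and precision is set by signal over background and by having 3 arrays per group. Of 68842 rows, 23446 carried exactly 1 gene symbol in the platform annotation, 505 several and 44891 none. Each of 22093 genes was represented by its brightest row, judged by the mean of the 6 arrays. The members came from 76 rows. On 4 further rows a Mrpl or Mrps gene was named beside another gene, and these were not used. The ages were compared with limma 3.58.1 in R 4.3.3, with no covariate in the linear model and with empirical Bayes moderation, and p-values were adjusted over all genes by Benjamini-Hochberg. A call needed an adjusted p under 0.05 together with a change beyond 1 on the log2 scale in either direction, after rounding to 6 decimals. The fit was tested on simulated data first. The labels call the arrays biological replicates. Members, gene lists and subunit classes were chosen with earlier results of these data known. Values per array are given for the 12 largest differences among called members whose groups do not overlap, the 4 most positive, the 4 brightest, 2 members on either side of each limit and members with more than 1 row, and up to 4 called genes are named per list. Per-array values of other genes, and the list genes that were not called, were chosen after their values were seen. Alternatives were a replicate block, 4 other scalings, limma-trend, the t-test of the methods (unadjusted and adjusted), dropping the fold limit, dropping dim genes, averaging the rows of a gene, and omitting each array in turn. P 1d replicate 2 alone was added after seeing the data. Promoter sequences are from RefSeq, build GRCr8.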

Additional observations from a re-analysis of the deposited data

How the results depend on the processing

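The 18 members called lower were 18 with the t-test of the methods unadjusted, with limma-trend, without dim genes and with the mean of a gene's rows, and 17 with the adjusted t-test, which lost Mrpl42, each with 0 higher. Leaving out each array in turn gave 15 to 19 members lower, 0 higher, 3791 to 4677 of the main 4249 genes called and members' medians of -0.55 to -0.47. Same-numbered arrays did not deviate together (correlations 0.01, -0.11 and 0.05), so the numbers were not taken as pairs. With the replicate block 18 members were lower, 0 higher and 4136 genes called. Without a fold limit 44 members and 12005 genes were called. With P 1d replicate 2 alone it was 7 members and 1159 genes, and the lone P 1d array is then assumed to vary like the P 6-8w arrays.

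Quantile normalization gave 2 members lower, 1884 genes called and a median of -0.22. Centring on the reference genes gave 3 lower, 7 higher, 13457 genes and 0.52, and centring on the bright genes 1 lower, 51 higher, 17871 genes and 1.29. Centring on the median of all named genes gave 20 lower and a median of -0.63. Leaving out dim genes gave 18 lower and -0.63, over 59 members. Of all calls 87.2% were lower as deposited, 92.6% centred on the median, 52.5% with quantile normalization, 9.79% with the reference genes, 3.31% with the bright genes, 56.3% without a fold limit and 95% without dim genes. The cause was not tested.

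Single members changed sign with the scaling. With quantile normalization they were Mrpl17 (0.14), Mrps5 (0.10), Mrpl32 (0.76), Mrpl35 (0.29), Mrpl45 (0.54), Mrpl27 (0.35), Mrps26 (0.27), Mrps16 (-0.12), Mrpl50 (-0.34) and Mrpl28 (-0.21). With the reference genes they were Mrpl32 (0.39), Mrpl35 (0.021), Mrpl48 (0.088), Mrpl15 (0.75), Mrpl45 (0.64), Mrpl27 (0.69), Mrps26 (0.65) and Mrpl36 (0.65). With the bright genes they were Mrps18b (0.033), Mrpl1 (0.10), Mrpl21 (0.17), Mrps9 (0.30), Mrpl17 (0.32), Mrpl51 (0.42), Mrps30 (0.46), Mrps18a (0.55), Mrps31 (0.58), Mrps27 (0.59), Mrpl16 (0.59), Mrps5 (0.65), Mrpl3 (0.69), Mrps18c (0.70), Mrpl46 (0.76), Mrpl35 (0.79), Mrpl48 (0.86), Mrpl32 (1.16), Mrpl45 (1.41), Mrps26 (1.42), Mrpl36 (1.42), Mrpl27 (1.46) and Mrpl15 (1.52). Centred on the median of all named genes they were Mrps16 (-0.11), Mrpl50 (-0.11), Mrps23 (-0.067), Mrps34 (-0.057) and Mrpl28 (-0.03). Leaving out each array in turn, Mrpl50 ran from -0.02 to 0.045 and Mrps23 from -0.013 to 0.107, both below 0 without P 6-8w replicate 3.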

Other observations

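In all, 6 copies of these genes were measured under names of their own and stayed outside the 74. Their differences ran from -0.15 to 0.11 and none passed the test by limma. Mrpl42-ps2 read 3.94, 3.94 and 3.80 at P 6-8w, against 3.94, 3.86 and 3.93 at P 1d, beside -2.63 for Mrpl42 itself. Mrps18b-ps1 read 3.53, 3.57 and 3.54 at P 6-8w, against 3.26, 3.54 and 3.77 at P 1d, beside -1.76 for Mrps18b. Both of these copies lay below the median of all genes on every array. Of genes with a mean under 5 only 0.22% were called lower, so a fall could hardly show there. The brighter copies Mrpl41l1 and Mrpl17-ps2, with mean signals of 5.92 and 5.15, were -0.10 and -0.08. The ribosome of the cytosol was read from 68 Rpl and Rps genes. On the deposited scale 43 fell (63.2%, beside 16.8% of all genes) and 0 rose (beside 2.46%), and the median was -1.43. With arrays centred on the median of all named genes 45 fell (beside 19.3%) and 0 rose (beside 1.55%), and the median was -1.56. With the reference genes 23 fell (beside 5.96% of all genes) and 1 rose (beside 54.9%), and the median was -0.41. With quantile normalization 9 fell (beside 4.48%) and 9 rose (beside 4.05%), and the median was 0.13. With the bright genes 16 fell (beside 2.68%) and 22 rose (beside 78.2%), and the median was 0.36. Their array medians ran from 9.31 to 10.34 at P 6-8w and from 11.29 to 11.32 at P 1d, so they were far brighter than the mitochondrial set, and the 2 sets were not compared at matched brightness.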
